A study of Mus musculus with 30 samples.

Results

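The genes described here are 10 of the 21820 protein-coding genes quantified in brain endothelial cells (ECs): 9 secreted or membrane-bound ligands (Ccl2, Ccl7, Cxcl1, Cxcl10, Cxcl12, Cxcl16, Cx3cl1, Il6 and Csf1) and Ackr3, a receptor that clears Cxcl12. They were listed by name as chemokines and cytokines made by ECs. The data comprise 14 RNA-seq libraries for transcripts and 10 ATAC-seq libraries for accessible chromatin, all from male adult mice. The comparisons ask how ECs change in culture, what distinguishes ECs from other brain cells, and whether stabilized beta-catenin alters cultured ECs.

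Acutely isolated ECs (n = 2 for RNA-seq and 2 for ATAC-seq) were the viable GFP-positive cells sorted from papain-dissociated brains of homozygous Tie2-GFP mice, in which the Tie2 promoter marks ECs, and the files combine cerebrum and cerebellum. GFP-negative cells of these mice (n = 2, RNA-seq) were the sorted remainder. WT cultures (n = 6 for each assay) and beta-catenin stabilized cultures (n = 4 for RNA-seq and 2 for ATAC-seq) were grown from pooled brains for 8 days on collagen in a medium with serum, hydrocortisone and growth factors. Early in culture, puromycin selected ECs by their efflux pump, with a dose and timing that differed between the isolation methods below. WT replicates 1 and 2 came from C57BL/6J mice by isolation method A, which uses papain. By the written Methods, WT replicates 3 to 6 came from mice of the genotype Ctnnb1flex3/+;Tie2-GFP by method B. That method uses a Dounce homogenizer and collagenase with dispase. A figure legend of the paper assigns some of these RNA-seq replicates to method A. Stabilized cultures came from mice that also carried Pdgfb-CreER, by method A for replicates 1 and 2 of RNA-seq and by method B for all others. All mice with the flex3 allele had received 4-hydroxytamoxifen as pups, which activates CreER in Pdgfb-expressing ECs. The controls of method B thus lacked only the recombinase, and those of method A also differed in line. The paper's wording does not make clear whether the C57BL/6J controls had received 4-hydroxytamoxifen. Replicates of cultures are wells, 2 from each experiment, and p-values that rest on wells of 1 experiment measure the spread between wells. Tests over several experiments took wells of 1 experiment as independent, which limits their p-values and intervals.

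Chemokines are small proteins that bind G protein-coupled receptors on leukocytes and guide them to and across vessel walls. Most are secreted, whereas Cxcl16 and Cx3cl1 sit on the cell surface on a mucin-like stalk until proteases of the Adam family release them. Endothelium is both a source of these signals and the surface on which leukocytes meet them, and several of the genes are textbook targets of NF-kB, the transcription factor of inflammatory signaling. In the healthy brain the vasculature is known as a source of Cxcl12, while Csf1 is a growth factor of microglia and macrophages.

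The sequences upstream of the genes were searched for 5 short motifs, since chromatin at several of them differed between acutely isolated and cultured ECs. The motifs were the kappaB consensus bound by NF-kB, the interferon response element TTTCNNTTTC, the AP-1 motif TGANTCA, the TEAD motif CATTCC and TATAAA, read on both strands. Promoters came from RefSeq on GRCm38.p6, and 7 of the 10 genes matched, namely Cxcl1, Cxcl10, Cxcl12, Cx3cl1, Il6, Csf1 and Ackr3. In the 300 bases from 250 before to 50 after the start, a kappaB match was found in 4 of the 7, against 8.46% of all 32851 promoters. The following lines give the 250 bases upstream of the 4 genes with a kappaB match, the promoter of Cxcl12, which held no match, and a region upstream of Ccl2 that is described with the ATAC-seq data. Capitals mark a match to any of the motifs.
Il6 promoter, chr5:30012864-30013113, + strand: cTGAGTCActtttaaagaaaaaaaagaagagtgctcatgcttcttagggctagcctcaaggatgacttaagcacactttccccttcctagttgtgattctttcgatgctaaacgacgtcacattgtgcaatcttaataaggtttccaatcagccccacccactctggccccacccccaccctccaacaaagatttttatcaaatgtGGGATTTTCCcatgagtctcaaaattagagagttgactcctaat
Cxcl1 promoter, chr5:90890995-90891244, + strand: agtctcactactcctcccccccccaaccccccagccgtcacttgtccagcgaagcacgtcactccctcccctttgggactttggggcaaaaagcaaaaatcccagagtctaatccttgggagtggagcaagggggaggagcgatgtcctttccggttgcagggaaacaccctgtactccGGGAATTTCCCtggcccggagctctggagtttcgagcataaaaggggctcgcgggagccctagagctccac
Cxcl10 promoter, chr5:92348890-92349139, - strand: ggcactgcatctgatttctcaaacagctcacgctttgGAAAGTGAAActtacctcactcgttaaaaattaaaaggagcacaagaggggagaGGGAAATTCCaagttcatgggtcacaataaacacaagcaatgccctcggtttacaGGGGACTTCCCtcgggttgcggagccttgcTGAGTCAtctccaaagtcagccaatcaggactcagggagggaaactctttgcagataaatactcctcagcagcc
Csf1 promoter, chr3:107760470-107760719, - strand: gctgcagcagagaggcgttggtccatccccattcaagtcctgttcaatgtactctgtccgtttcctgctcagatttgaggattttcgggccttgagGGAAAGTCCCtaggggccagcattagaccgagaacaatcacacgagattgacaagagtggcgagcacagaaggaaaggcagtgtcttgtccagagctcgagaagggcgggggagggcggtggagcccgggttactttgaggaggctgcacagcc
Cxcl12 promoter, chr6:117168285-117168534, + strand: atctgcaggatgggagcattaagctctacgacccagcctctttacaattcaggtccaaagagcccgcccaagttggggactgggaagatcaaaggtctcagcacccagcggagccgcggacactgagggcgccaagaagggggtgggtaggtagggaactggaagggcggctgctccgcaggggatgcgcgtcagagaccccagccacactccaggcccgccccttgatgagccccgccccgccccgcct
Ccl2 upstream region, chr11:82032958-82033257, + strand: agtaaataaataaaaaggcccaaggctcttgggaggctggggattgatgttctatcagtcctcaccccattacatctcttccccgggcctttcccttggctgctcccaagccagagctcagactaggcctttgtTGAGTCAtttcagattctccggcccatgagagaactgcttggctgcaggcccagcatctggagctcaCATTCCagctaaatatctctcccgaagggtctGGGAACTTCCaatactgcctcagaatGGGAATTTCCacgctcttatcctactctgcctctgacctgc

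Counted back from the start of transcription, the kappaB match of Il6 lay at −44 to −35, and its AP-1 match at −249 to −243. The kappaB matches of Cxcl1, 1 on each strand, overlapped between −71 and −61. In Cxcl10, kappaB matches lay at −159 to −150 and between −104 and −94, an interferon element at −213 to −204 and an AP-1 match at −74 to −68, so that Cxcl10, a gene named for its induction by interferon, was the only one of the 7 with 3 of the motifs. The match of Csf1 lay at −154 to −145. Cx3cl1 and Ackr3 held only TATAAA, at −6 to −1 and −8 to −3. The interferon element stood in 3.44% of all promoters, the AP-1 motif in 7.81% and TATAAA in 13.6%, and no promoter of the 7 held the TEAD motif, which stood in 14.7%. Such a match describes letters in a window and no binding.

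Levels are given as rescaled TPM, which is the deposited TPM, a length-corrected abundance, scaled to the same total over protein-coding genes in every library. Rescaling was needed because protein-coding genes held between 36.2% and 64.9% of the deposited TPM in 12 libraries but 94.7% and 94.8% in WT replicates 3 and 4, which were prepared at another facility. The total estimated count was from 55701811 to 94686456 in acutely isolated ECs, from 53421411 to 74422089 in GFP-negative cells, from 24284843 to 65623544 in WT cultures and from 53213098 to 61342434 in stabilized cultures. Mitochondrial genes took 10.6% to 11.2% of it in acutely isolated ECs, 14.9% to 24.2% in GFP-negative cells, 0.667% to 1.58% in WT cultures and 1.62% to 2.58% in stabilized cultures, and their part in the differences below was not tested. A list of 6 EC markers summed to between 5162 and 6766 in acutely isolated ECs, 1642 and 4067 in WT cultures, 2300 and 5181 in stabilized cultures, and 12.9 and 39.95 in GFP-negative cells. The ECs therefore carried the markers of their label, and sorted and cultured cells were compared in bulk, where fewer cells of a type and less RNA per cell cannot be told apart. Since the floxed exon of Ctnnb1 is not resolved by sums per gene, these tables do not check the allele.

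Brain ECs taken directly from the animal were dominated by Cxcl12, whereas the cultured cells made Ccl2 at the same order of magnitude beside it. The 10 genes together summed to between 102 and 138 rescaled TPM in GFP-negative cells, 1243 and 1321 in acutely isolated ECs, 999.9 and 2341 in WT cultures and 1227 and 3165 in stabilized cultures. In acutely isolated ECs the mean of Cxcl12 was 84.6% of this sum and ranked 77 among all genes. Cxcl1, Ackr3, Cx3cl1 and Csf1 followed with ranges that overlapped from one to the next, then Cxcl16 and Cxcl10, again overlapping, and Ccl2, Ccl7 and Il6 had no counts. In WT cultures Ccl2 held 46.3% of the sum and ranked 218 among all genes, Cxcl12 held 27.9%, and the order of both turned with the experiment. The mean of Ccl2 was 1304 against 312 for Cxcl12 in method A and 731 against 352 in method B at 150 cycles, but 148 against 649 in method B at 36 cycles. Csf1 came next with 7.99%, then Cxcl1, Cx3cl1, Ackr3 and Cxcl16, which overlapped with one another and with Csf1, and last Il6, Cxcl10 and Ccl7, which did not differ beyond their spread.

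**Figure D1:**
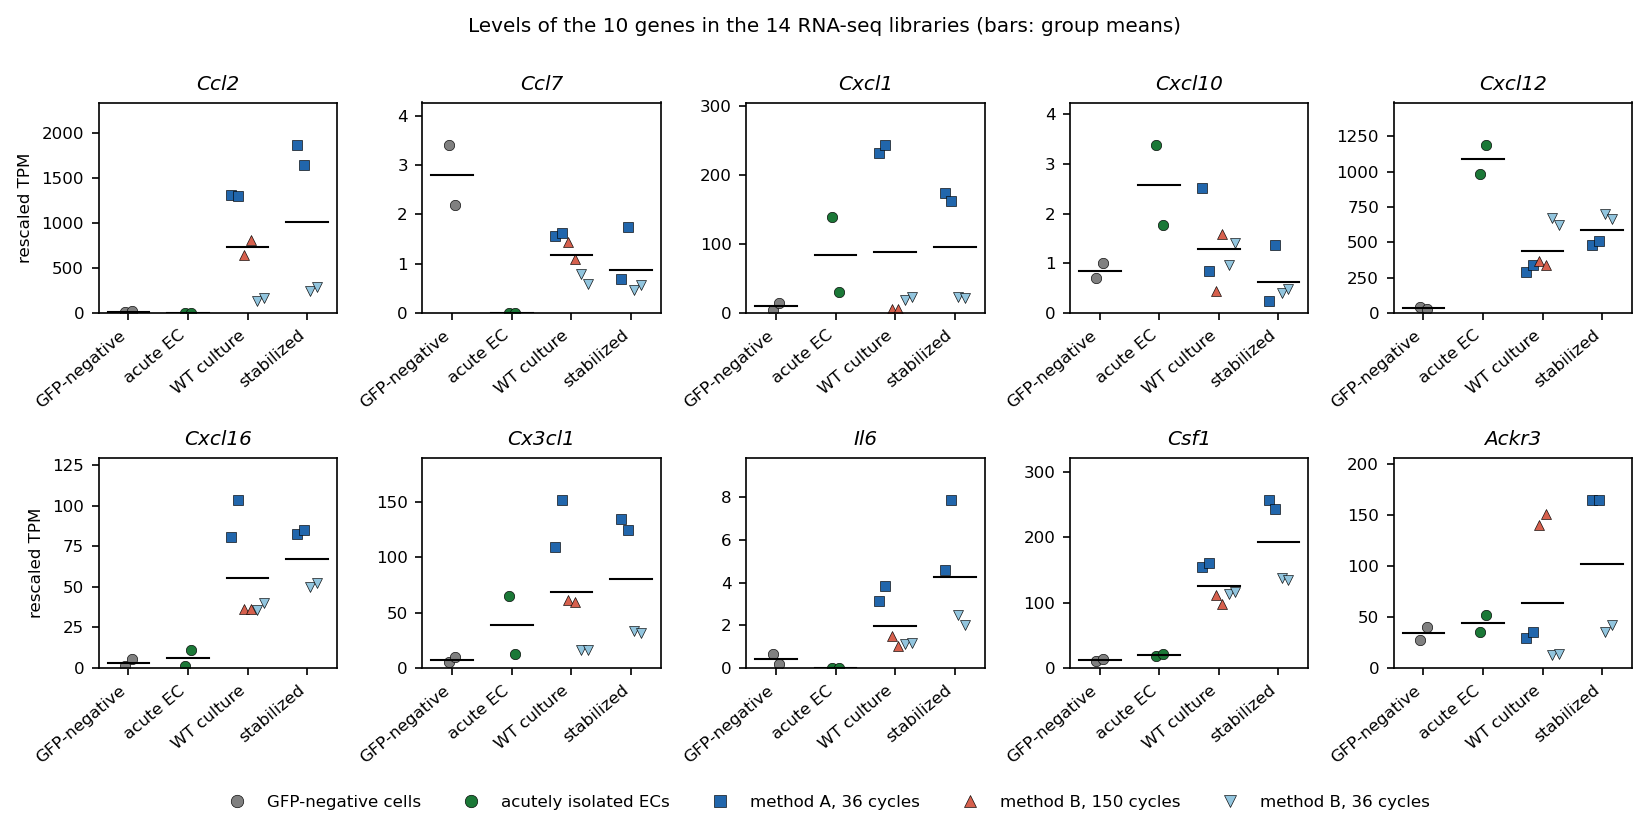
Rescaled TPM (vertical axis, linear, a scale for each gene) of the 10 genes in each of 14 RNA-seq libraries, with groups along the horizontal axis, symbols for isolation method and read cycles, and bars for group means. Ccl2 lies at 0 in both acutely isolated libraries and between 132 and 1306 in WT cultures, while Cxcl12 is highest in acutely isolated ECs, and cultured values lie in pairs by experiment.

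Differences were tested with edgeR's quasi-likelihood test on estimated counts. A gene was called at a Benjamini-Hochberg adjusted p under 0.05 over all genes tested, a change over 2-fold and a deposited TPM of at least 5 in every library of the higher group. Between WT cultures and acutely isolated ECs, 13.5% of 13785 genes were called higher in culture and 10.2% lower. Of the 10 genes, Ccl2, Cxcl16 and Csf1 were called higher in culture and Cxcl12 lower, which is 4 of 10 against 23.8% of all genes in either direction. An adjusted p under 0.05 alone was reached by 6 of the 10, also Ccl7 and Il6, against 45.2% of all genes. This fit took the 6 wells of 3 culture experiments as independent, and so did the p-values and intervals for culture below. With the wells of each experiment summed, the same 4 genes were called. Between acutely isolated ECs and GFP-negative cells, 8.3% of genes were called up in ECs and 7.56% down (15.9% in all), and of the 10 genes Cxcl12 and Cxcl1 were called up. An adjusted p under 0.05 alone was reached by 4 of the 10, also Ccl2 and Ccl7, against 29.6% of all genes. Both comparisons use the same 2 libraries of acutely isolated ECs, which were single reads of 75 cycles where cultures were paired reads, so that read type and culture cannot be told apart.

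**Figure D2:**
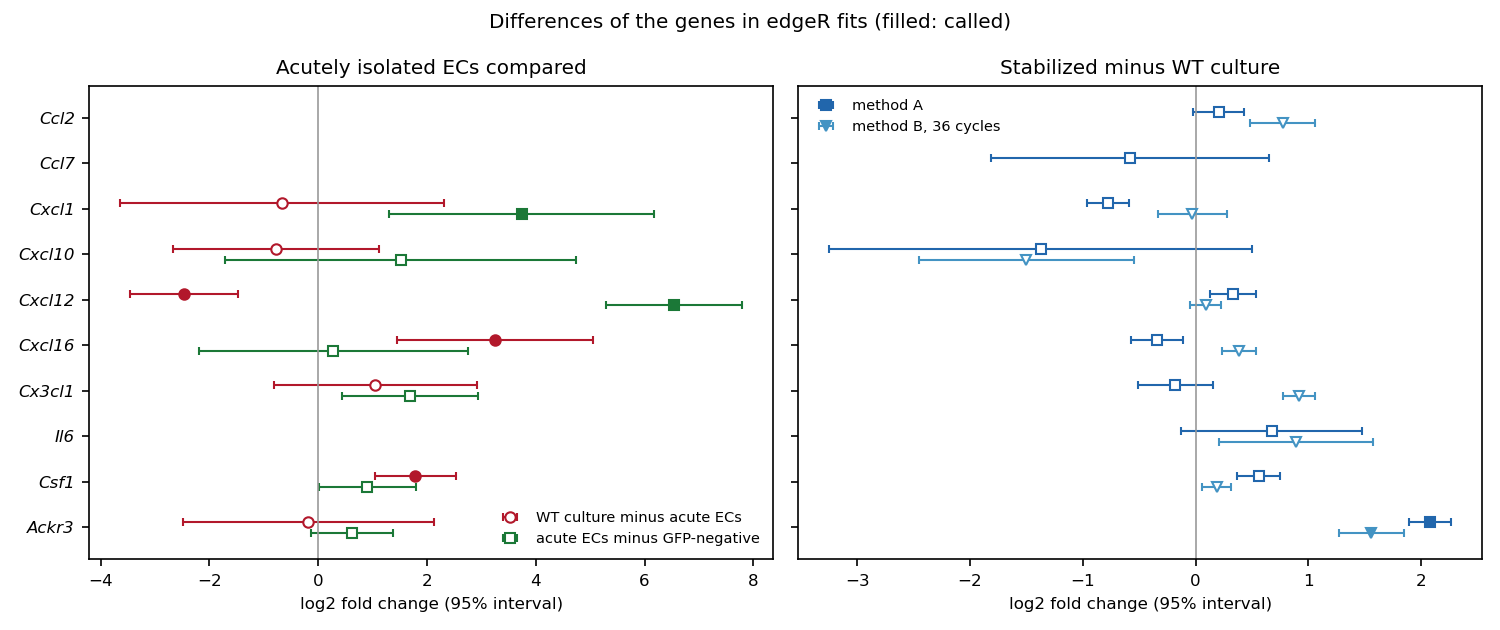
Log2 fold changes with 95% intervals (horizontal axis) from edgeR for each gene (vertical axis), on the left for WT cultures minus acutely isolated ECs and for acutely isolated ECs minus GFP-negative cells, on the right for stabilized minus WT cultures within method A and within method B at 36 cycles. Filled symbols were called; on the left Ccl2, Ccl7 and Il6 are left out because acutely isolated ECs had no counts, and Ackr3 is the only filled symbol on the right.

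Ccl2, the CC chemokine that draws monocytes through the receptor Ccr2, went from no counts to one of the most abundant transcripts of cultured ECs. It is ENSMUSG00000035385.5 on chromosome 11 of GRCm38, 82035571 to 82037453, on the plus strand. Its level was 0 in both libraries of acutely isolated ECs and 5.53 and 20.4 in GFP-negative cells. In WT cultures it was 1306 and 1302 in the wells of method A, 649 and 813 in the method B wells of 150 cycles, and 132 and 163 in the method B wells of 36 cycles. Every cultured library thus lay above every library from the animal, and the experiments differed by up to 3.06 on the log2 scale. With 3 counts over both acutely isolated libraries, the limit that a count of 0 allows, Ccl2 was at least 8847-fold higher in WT culture (adjusted p 0.000854 from edgeR). The same limit put it at least 167.5-fold lower in ECs than in GFP-negative cells (adjusted p 0.00974), a difference that was not called because GFP-negative replicate 1 had a deposited TPM under 5. It was called lower where the minimum was applied to rescaled TPM.

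Ccl7, a CC chemokine that binds several receptors of monocytes, lies just downstream at 82045712 to 82047525 of chromosome 11 (ENSMUSG00000035373.2, plus strand) and stayed near the detection limit. Its level was 3.41 and 2.20 in GFP-negative cells, 0 in both acutely isolated EC libraries, and 1.56, 1.63, 1.44, 1.09, 0.795 and 0.589 in WT replicates 1 to 6. Cultured values lay above those of acutely isolated ECs and below those of GFP-negative cells, at 9 to 20 counts per WT library. The fold was at least 14.2 in WT culture (adjusted p 0.00298 from edgeR) without reaching the TPM minimum of a call. Its neighbor Ccl2, by contrast, was the most abundant of the 10 genes in WT replicates 1 to 4.

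Cxcl12, which acts through Cxcr4 and holds leukocytes at the abluminal side of brain vessels, was the most abundant of the 10 genes in acutely isolated ECs. The gene (ENSMUSG00000061353.11) spans 117168535 to 117181367 of chromosome 6 on the plus strand. Levels were 980.4 and 1190 in acutely isolated ECs against 42.5 and 30.4 in GFP-negative cells. In WT cultures they were 288 and 336 for method A, 369 and 336 for method B at 150 cycles, and 674 and 624 for method B at 36 cycles. No cultured library reached either acutely isolated one, and all lay above GFP-negative cells. ECs exceeded GFP-negative cells in Cxcl12 by 6.54 on the log2 scale (SE 0.51, 95% interval 5.30 to 7.79, adjusted p 0.00172 from edgeR), and by 5.02 with the length offset. In culture it fell by 2.47 on that scale (SE 0.44, interval −3.46 to −1.48, adjusted p 0.00231 from edgeR), with −2.72 within method A alone and −2.36 within method B alone. An offset for transcript length moved the change to −1.65 (adjusted p 0.0105 from edgeR, still called), and limma on deposited TPM gave −1.14 and no call (adjusted p 0.133), whereas limma on rescaled TPM called it.

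The mix of Cxcl12 transcripts differed between groups as well. Cxcl12-201 held 57.01% and 61.0% of the deposited TPM of the gene in acutely isolated ECs, 86.5% and 87.5% in WT cultures of method A, 36.7% and 31.8% in method B at 150 cycles, and 62.9% and 63.8% in method B at 36 cycles. Cxcl12-203 held 35.0% and 28.6% in acutely isolated ECs and at most 4.42% in any cultured library. GFP-negative cells had mainly Cxcl12-202, with 89.4% and 80.2%. Shares between transcripts that overlap are estimates of Salmon. They differed between WT culture experiments, also between the 2 of 36 cycles, and the part of read format was not tested.

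Cxcl1, a CXC chemokine that draws neutrophils through Cxcr2, split the culture experiments most among the 10 genes. It is ENSMUSG00000029380.11, at 90891241 to 90893115 of chromosome 5 on the plus strand. Levels were 139 and 30.5 in acutely isolated ECs, and 4.67 and 14.9 in GFP-negative cells. In WT cultures they were 232 and 245 for method A, 5.18 and 6.01 for method B at 150 cycles, and 19.1 and 23.7 for method B at 36 cycles. Cultures of method A lay above, and those of method B below, both acutely isolated libraries. Over all 6 WT cultures the log2 change was −0.66 (95% interval −3.64 to 2.32, adjusted p 0.704 from edgeR), within method A 0.75 (adjusted p 0.470 from edgeR), and within method B −3.15, which was called (adjusted p 0.0138 from edgeR). In acutely isolated ECs Cxcl1 was higher than in GFP-negative cells by 3.74 (SE 1.003, interval 1.31 to 6.18, adjusted p 0.0361 from edgeR). That call was lost without acutely isolated replicate 1 (1.95, adjusted p 0.146 from edgeR), without GFP-negative replicate 1 (3.18, adjusted p 0.0955 from edgeR), with the replicate block, with the length offset and with limma.

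Cxcl10, a ligand of Cxcr3 on activated T cells, was at the edge of detection everywhere. The gene (ENSMUSG00000034855.13) lies at 92346638 to 92348889 of chromosome 5 on the minus strand. Levels were 0.696 and 0.996 in GFP-negative cells, 3.39 and 1.77 in acutely isolated ECs, and 2.52, 0.845, 0.433, 1.59, 0.962 and 1.41 in WT replicates 1 to 6. Acutely isolated ECs lay above GFP-negative cells, WT cultures overlapped with both, and the whole estimate of acutely isolated replicate 2 went to a transcript with a retained intron. The log2 difference was −0.78 for culture (interval −2.68 to 1.11, adjusted p 0.469 from edgeR) and 1.52 for ECs over GFP-negative cells (interval −1.71 to 4.74, adjusted p 0.442 from edgeR).

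Cxcl16, a transmembrane chemokine and scavenger receptor whose own receptor is Cxcr6, rose in culture. It is ENSMUSG00000018920.11, at 70453983 to 70459984 of chromosome 11 on the minus strand. Levels were 1.12 and 11.2 in acutely isolated ECs and 1.11 and 5.36 in GFP-negative cells. WT cultures had 80.9 and 104 by method A, 36.1 and 36.5 by method B at 150 cycles, and 36.0 and 39.9 by method B at 36 cycles. All cultured values lay above those from the animal, which overlapped with each other. The log2 change in culture was 3.25 (SE 0.80, interval 1.45 to 5.06, adjusted p 0.0103 from edgeR), with 3.86 in method A and 2.82 in method B alone. It was 2.43 without acutely isolated replicate 1 and 5.24 without replicate 2. Between 51.2% and 66.5% of the TPM of the gene in WT cultures, and 79.97% and 89.5% in acutely isolated ECs, went to Cxcl16-202, a transcript annotated as subject to nonsense-mediated decay.

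Cx3cl1 (fractalkine), the membrane-bound ligand of the microglial and monocyte receptor Cx3cr1, differed between experiments, and no change was called over all WT cultures. The gene (ENSMUSG00000031778.13) is on the plus strand of chromosome 8, 94772009 to 94782427. Levels were 65.2 and 13.0 in acutely isolated ECs and 5.595 and 9.72 in GFP-negative cells. WT cultures had 109 and 152 by method A, 61.1 and 59.8 by method B at 150 cycles, and 16.4 and 16.0 by method B at 36 cycles. Only cultures of method A lay above both acutely isolated libraries, and in the higher of these 88.1% of the TPM went to a transcript annotated as subject to nonsense-mediated decay, against 0 in the other. The log2 change was 1.05 over all WT cultures (interval −0.82 to 2.92, adjusted p 0.324 from edgeR), 2.01 within method A, where it was called (adjusted p 0.00949 from edgeR), and 0.14 within method B. ECs exceeded GFP-negative cells by 1.68 (interval 0.43 to 2.93), which missed the threshold (adjusted p 0.0534 from edgeR), while DESeq2 called it.

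Il6, the cytokine that signals through Il6ra and gp130 (Il6st), appeared in culture at a low level. It is ENSMUSG00000025746.11, at 30013114 to 30019981 of chromosome 5 on the plus strand. Its level was 0 in both acutely isolated EC libraries, 0.659 and 0.212 in GFP-negative cells, and 3.13, 3.86, 1.503, 1.03, 1.11 and 1.18 in WT replicates 1 to 6. Cultured libraries lay above all others on 16 to 44 counts each. Il6 was at least 30.6-fold higher in WT culture than in acutely isolated ECs (adjusted p 0.00193 from edgeR) and, at a deposited TPM under 5, was not called.

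Csf1, the growth factor that keeps microglia and macrophages alive through Csf1r, rose in culture by like amounts in every experiment. The gene (ENSMUSG00000014599.10) is on the minus strand of chromosome 3, 107741048 to 107760469. Levels were 18.4 and 22.1 in acutely isolated ECs and 10.6 and 13.3 in GFP-negative cells. In WT cultures they were 154 and 161 by method A, 111 and 98.0 by method B at 150 cycles, and 114 and 116 by method B at 36 cycles. The cultured wells did not overlap with the acutely isolated libraries, and their experiments differed less than 2-fold. The log2 change was 1.79 (SE 0.33, interval 1.04 to 2.54, adjusted p 0.00287 from edgeR), with 1.98 in method A and 1.69 in method B alone. It was larger, 2.27, with the length offset and 2.56 with limma on rescaled TPM. Between ECs and GFP-negative cells the difference was 0.90 (interval 0.01 to 1.80, adjusted p 0.1202 from edgeR).

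Ackr3, the receptor that internalizes Cxcl12 without G protein signaling and so shapes its gradients, lay on either side of its acutely isolated level in different culture experiments. It is ENSMUSG00000044337.5, at 90203980 to 90216751 of chromosome 1 on the plus strand. Levels were 35.7 and 52.3 in acutely isolated ECs and 27.7 and 40.7 in GFP-negative cells. WT cultures had 29.3 and 35.2 by method A, 140.2 and 152 by method B at 150 cycles, and 12.4 and 13.4 by method B at 36 cycles. The experiment of 150 cycles thus lay above, and the other two below, both acutely isolated libraries. Over all WT cultures the log2 change was −0.18 (interval −2.49 to 2.12, adjusted p 0.895 from edgeR), and 0.10 with scaling by library size. Within method A it was −1.39 (adjusted p 0.00820 from edgeR) and within the 4 wells of 36 cycles −1.88 (adjusted p 0.0129 from edgeR), both called, while within method B it was 0.18 (adjusted p 0.907 from edgeR).

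Among the 3 WT culture experiments, each tested against the spread between wells, 8 of the 10 genes differed by more than 2-fold at an adjusted p under 0.05, against 58.5% of all genes. The log2 ratio of the highest to the lowest experiment was 4.61 for Cxcl1, 3.77 for Ackr3, 3.06 for Ccl2, 2.87 for Cx3cl1, 1.60 for Il6, 1.29 for Ccl7, 1.27 for Cxcl12 and 1.099 for Cxcl16. Csf1 differed by only 0.56 (adjusted p 0.00036 from edgeR), and Cxcl10 by 0.46 (adjusted p 0.744 from edgeR). Method A gave the highest mean of Ccl2, Cxcl1, Cxcl16, Cx3cl1 and Il6, whereas Cxcl12 was highest in method B at 36 cycles and Ackr3 in method B at 150 cycles. Isolation method, mouse line, facility, read length and the experiment itself cannot be told apart here. Ccl7, at its low counts, no longer differed when genes of low counts stayed in the fit.

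Stabilization of beta-catenin left the 10 genes unresolved when all cultures were pooled and Ackr3 was called in both comparisons of wells that share isolation method and read length. Over 4 stabilized and 6 WT cultures edgeR called 0% of 12959 genes and 0 of the 10, with 1344 genes at an unadjusted p under 0.05, among them Cxcl10 and Csf1, while DESeq2 called 18 genes and again none of the 10. Log2 differences ran from −1.43 for Cxcl10 (interval −2.69 to −0.17) to 0.88 for Il6 (interval −0.17 to 1.92). The intervals were wide where experiments differed, from −1.60 to 1.74 for Ccl2, −2.51 to 2.24 for Cxcl1 and −1.59 to 2.08 for Ackr3. With the replicate number as a block, edgeR called 190 genes and none of the 10, but numbers 3 and 4 join wells of unlike read length.

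Within method A, 5.39% of genes were called higher and 0.918% lower in stabilized cultures (6.3% in all), and of the 10 genes only Ackr3 was called. Its level was 165.3 and 165.2 in stabilized wells against 29.3 and 35.2 in WT wells, a log2 difference of 2.08 (SE 0.08, interval 1.89 to 2.26, adjusted p 0.000109 from edgeR). Within method B at 36 cycles, to which comparisons within method B refer from here on, where 1.08% were called higher and 0.288% lower (1.36% in all), Ackr3 was again the only one of the 10, at 35.2 and 42.7 against 12.4 and 13.4 (1.56, SE 0.12, interval 1.27 to 1.84, adjusted p 0.000887 from edgeR). In both pairs of experiments the stabilized wells lay above the WT wells without overlap. The WT wells of method B at 150 cycles, which entered neither comparison, had 140.2 and 152 and so lay above the stabilized wells of method B, and the 3.77 between WT experiments exceeded both differences. In method A, limma on TPM gave 2.88. With method as a covariate over the 8 wells of 36 cycles the difference was 1.81 (SE 0.13, adjusted p 0.00156 from edgeR).

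The other 9 genes were not called, and an adjusted p under 0.05 alone was reached by 56% of all genes in method A and 37.1% in method B. Csf1 was 257 and 243 in stabilized wells of method A against 154 and 161 (0.56, adjusted p 0.00183 from edgeR), and 138 and 134 against 114 and 116 in method B (0.19, adjusted p 0.0354 from edgeR). Ccl2 was 1869 and 1642 against 1306 and 1302 in method A (0.21, adjusted p 0.104 from edgeR), and 245 and 283 against 132 and 163 in method B (0.77, adjusted p 0.00557 from edgeR). Both genes were higher in every stabilized well than in the WT wells of the same method and read length. The WT wells of 150 cycles, also of method B, had Ccl2 at 649 and 813 and so lay above the stabilized wells of that method.

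Cxcl1 was 174 and 162 against 232 and 245 in method A (−0.77, adjusted p 0.000785 from edgeR) and 22.9 and 21.6 against 19.1 and 23.7 in method B (−0.03, adjusted p 0.871 from edgeR). Cx3cl1 was 134 and 125 against 109 and 152 in method A (−0.18, adjusted p 0.306 from edgeR) and 33.1 and 31.3 against 16.4 and 16.0 in method B (0.92, adjusted p 0.000672 from edgeR). Cxcl16 was 82.6 and 84.7 against 80.9 and 104 in method A (−0.34, adjusted p 0.0218 from edgeR) and 50.0 and 52.3 against 36.0 and 39.9 in method B (0.38, adjusted p 0.00670 from edgeR). Against the WT wells of 36 cycles in method B, Cx3cl1 and Cxcl16 were higher in both stabilized wells while Cxcl1 overlapped. The WT wells of 150 cycles, with Cx3cl1 at 61.1 and 59.8, lay above the stabilized wells.

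Cxcl12 was 478 and 507 against 288 and 336 in method A (0.33, adjusted p 0.0159 from edgeR) and 700.0 and 661 against 674 and 624 in method B (0.09, adjusted p 0.261 from edgeR). The low transcripts gave wider intervals. Il6 was 4.603 and 7.87 against 3.13 and 3.86 in method A (0.67, adjusted p 0.128 from edgeR) and 2.50 and 2.004 against 1.11 and 1.18 in method B (0.89, adjusted p 0.0502 from edgeR). Cxcl10 was 0.240 and 1.37 against 2.52 and 0.845 in method A (−1.37, adjusted p 0.176 from edgeR) and 0.402 and 0.473 against 0.962 and 1.41 in method B (−1.501, adjusted p 0.0287 from edgeR). Ccl7 was 0.696 and 1.74 against 1.56 and 1.63 in method A (−0.58, adjusted p 0.367 from edgeR), and its 0.475 and 0.559 against 0.795 and 0.589 in method B were too few counts to be tested. None of these 4 was called in either method.

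The difference between the methods was itself tested as an interaction over 8 wells, with an adjusted p under 0.05 for 6 of the 10 genes against 49.6% of all genes. Stabilization minus WT was more positive in method B than in method A for Cx3cl1 by 1.12 (adjusted p 0.00135 from edgeR), for Cxcl1 by 0.76 (0.00286), for Cxcl16 by 0.75 (0.00135) and for Ccl2 by 0.58 (0.0215). It was less positive for Ackr3, by −0.50 (adjusted p 0.0238 from edgeR), and for Csf1, by −0.35 (0.0182). Each genotype in each method was 2 wells of 1 experiment, so this test also rests on the spread between wells. Since the WT mice of method A were of another line, the method, the line and the experiment cannot be told apart in this test.

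Most receptors by which leukocytes sense these ligands were near 0 in ECs of either kind. Ccr2, Cxcr2, Cxcr3, Cxcr6, Cx3cr1 and Csf1r were under 1 rescaled TPM in every EC library, fresh or cultured, whereas GFP-negative cells had 34.1 and 38.1 for Csf1r, 17.9 and 17.3 for Cx3cr1, 7.23 and 12.9 for Ccr2, and 3.07 and 7.02 for Cxcr6. Cxcr2 and Cxcr3 were under 1 there too. Cxcr4, the signaling receptor of Cxcl12, was present, with 12.9 and 13.3 in acutely isolated ECs, 88.5 and 102 in method A, 61.4 and 61.2 in method B at 150 cycles, and 14.4 and 19.3 in method B at 36 cycles. It was called higher in culture by 2.34 (adjusted p 0.0447 from edgeR), a call that was lost with RLE scaling, with the length offset and on rescaled TPM. In stabilized wells Cxcr4 rose to 435 and 399.7 in method A (1.90, adjusted p 0.000311 from edgeR) and to 96.0 and 120.3 in method B (2.70, adjusted p 0.000768 from edgeR). Both receptors of Cxcl12 were thus called higher in stabilized wells in both comparisons within a method, and the ligand in neither. These calls rest on the spread between wells, and Cxcr4 ran from 14.4 to 102 among WT cultures alone. With all cultures pooled neither receptor was called. The pooled difference was 1.79 for Cxcr4 (adjusted p 0.426 from edgeR) and 0.24 for Ackr3 (adjusted p 0.925 from edgeR).

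Il6st, the shared signaling chain of the Il6 family, was at 255 and 113 in acutely isolated ECs and between 108 and 185 in WT cultures (−0.68, adjusted p 0.0812 from edgeR). Il6ra, which binds Il6 itself, was at 7.41 and 18.7 in acutely isolated ECs and between 2.21 and 4.36 in WT cultures (−3.09, adjusted p 0.00017 from edgeR), and was not called because acutely isolated replicate 1 had a deposited TPM under 5. Neither the ligand nor the chains of its receptor passed all thresholds of a call.

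Around the 10 genes, 8 lists of related genes were followed in WT cultures against acutely isolated ECs, where the median log2 change of all genes was 0.10 and that of the 10 genes 1.42. Scaling by library size moved the median of all genes to 0.30. Beside the counts of calls below, 13.5% of all genes were called higher in culture and 10.2% lower. Of 27 other chemokine ligands 11 could be tested, and none was called in either direction by edgeR (median −1.74), although 6 had an adjusted p under 0.05 below the TPM minimum. Chemokine receptors had 1 called higher, Cxcr4, and none lower among 8 tested of 22 (median −0.89). Among 18 tested of 23 other cytokines and leukocyte growth factors (median 1.68), Mif, a cytokine that also binds Cxcr4, rose by 5.16 from 20.8 and 13.9 to between 440 and 1851, and Tnfsf10 (Trail) fell by 5.98 from 47.1 and 59.9 to between 0.3499 and 3.73. The rise of Ccl2 and Cxcl16 thus stood beside no called chemokine ligand from outside the 10 genes. Without a call, Cxcl3 had a log2 change of 4.38, and the bounds of Cxcl5 and Ccl17 were at least 5.32 and 3.01. All other tested ligands of that list had negative values, down to −5.02 for Ppbp.

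Signaling components moved in both directions. Of 18 cytokine receptors 3 were called higher and 4 lower (median −0.56), with the interferon-gamma receptor chain Ifngr2 at 2.85 and the interleukin-1 coreceptor Il1rap at 2.19, and with Lifr at −2.93 and Osmr at −2.76, both partners of Il6st. Of 16 NF-kB components 5 were called higher and 1 lower (median −0.05), among them the subunits Relb at 1.98, Rela at 1.82 and Nfkb2 at 1.52 and the kinase Ikbkb at −1.78, and the calls of Rela, Chuk and Ikbkb were lost with the length offset, which left 3 higher and none lower. Of 16 tested interferon-stimulated genes 8 were called lower and none higher (median −1.84), also with the length offset, led by Oasl2 at −5.00, Ifit1 at −3.88, Isg15 at −3.46 and Irf7 at −3.04. In acutely isolated ECs 12 of these 16 had been called higher than in GFP-negative cells, against 8.3% of all genes. Both counts use the same 2 libraries of acutely isolated ECs.

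None of 8 leukocyte adhesion molecules was called in either direction in WT culture (median 0.85). Of 4 sheddases and peptidases, Adam10 and Adam17, which release Cx3cl1 and Cxcl16 from the membrane, were called lower at −2.33 and −1.71 (median −1.85). Adam10 was at 484 and 280 in acutely isolated ECs and between 27.5 and 116 in WT cultures, and Adam17 at 133 and 189 against 27.8 to 50.7. The lists were read by their counts and medians alone.

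**Figure D3:**
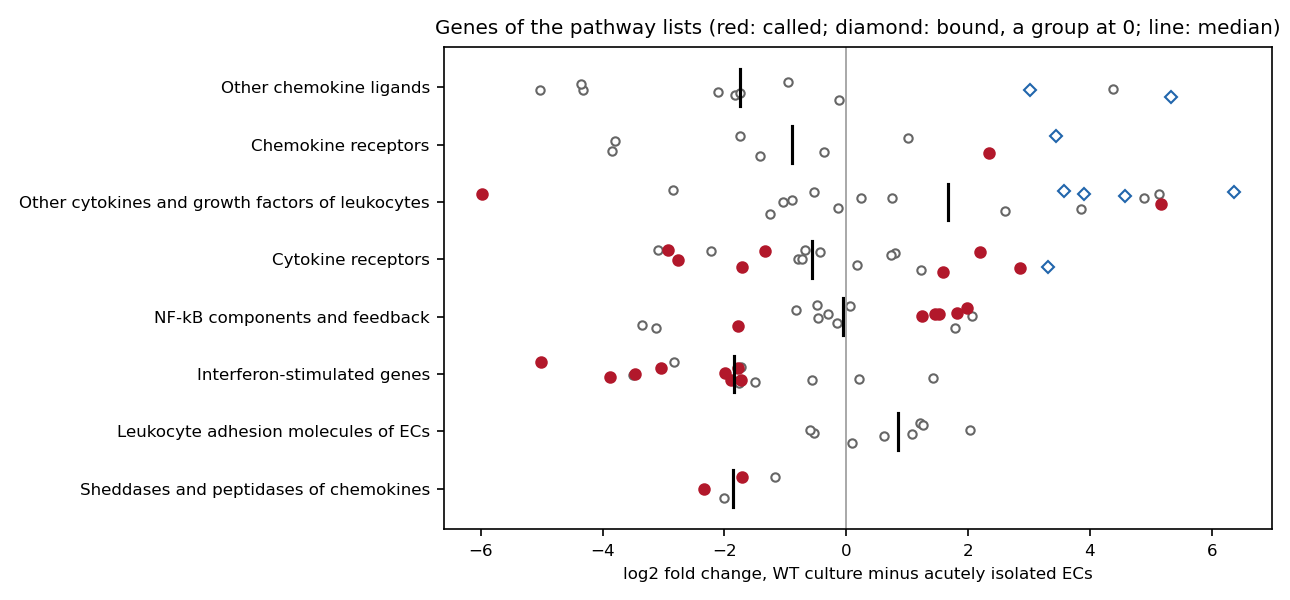
Log2 fold changes of WT cultures minus acutely isolated ECs (horizontal axis) for the tested genes of 8 lists (vertical axis), with called genes in red, list medians as lines and diamonds for lower bounds where acutely isolated ECs had no counts. Interferon-stimulated genes have 8 red points, all below 0, and other chemokine ligands have none.

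Transcripts of other cell types were followed because several can make these ligands. The summed level of 8 microglia and macrophage markers was between 202 and 214 in GFP-negative cells, 2.103 and 13.5 in acutely isolated ECs, 2.50 and 10.8 in WT cultures and 4.18 and 12.7 in stabilized cultures, and their part in the levels of Ccl2 and Csf1 was not tested. Of these 8 markers only Aif1 had no counts in acutely isolated ECs, and 5, with Aif1 among them, were under 1 in both libraries. Pericyte and smooth muscle markers summed to 894 in each acutely isolated library and to between 370 and 1801 in WT and 266 and 1644 in stabilized cultures, and their part in the levels of Cxcl12, Csf1 and Ccl2 was not tested. Fibroblast markers stayed between 11.5 and 85.0 in all ECs. Astrocyte markers reached at most 19.5, neuron markers 30.3, oligodendrocyte markers 67.7 and lymphocyte markers 3.51 in any EC library. Erythrocyte markers were at 11384 and 61418 in acutely isolated ECs and at most 1.55 in cultures, and their part in the drop of other transcripts was not tested.

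ATAC-seq reads out chromatin opened by regulatory proteins and was not used to list the genes. Peaks within 1000 bases of an annotated start site were found in both acutely isolated libraries for 6 of the 10 genes, Cxcl1, Cxcl10, Cxcl12, Cx3cl1, Csf1 and Ackr3, and in all 6 WT libraries for the same 6. Ccl2, Cxcl16 and Il6, which had a peak in some cultures, had none in acutely isolated ECs, and Ccl7 had none in any library. Among all genes, 54.8% had such a peak in both acutely isolated libraries and 53.9% in all WT libraries. No such peak was listed in either acutely isolated library for 42.2% of all genes, beside 4 of the 10. In none of the WT libraries was it listed for 31.6% of all genes, beside 1 of the 10. The peak lists held 37453 and 31844 peaks in acutely isolated ECs, and 50450, 33152, 92763, 98840, 84560 and 92976 in WT replicates 1 to 6, so that a missing peak in the short lists is weak evidence. With 2 against 6 libraries a two-sided exact permutation test cannot go below p = 0.0714, and the values are described.

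Cxcl12 had its highest enrichment where its transcript was highest. The highest peak at its start had a fold enrichment over local background of 11.4 and 13.1 in acutely isolated ECs, between 6.17 and 8.35 in WT cultures (median 7.15), and 6.88 and 6.51 in stabilized cultures, without overlap. Cxcl1 and Cxcl10 went the other way, Cxcl1 from 6.11 and 7.23 to between 7.71 and 14.3 (median 12.7) and Cxcl10 from 5.57 and 6.16 to between 9.35 and 16.8 (median 13.9). For Cxcl1 the closest values of the groups were 7.23 and 7.71. The share of all genes whose enrichment separates the groups in this way was not counted. Neither Cxcl1 nor Cxcl10 was called higher by RNA-seq over all WT cultures. Accessible starts of both genes in all cultured libraries thus went along with levels that were low for Cxcl10 and different between experiments for Cxcl1.

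Il6 had no peak at its start in acutely isolated ECs or WT replicate 2 and an enrichment of 8.63, 11.0, 12.7, 14.5 and 16.2 in the other WT libraries, with 9.24 and 11.3 in stabilized cultures. Cxcl16 had none in the same 3 libraries, and 4.00, 5.72, 5.39, 4.02 and 6.80 in the other WT libraries. WT replicate 2 has the shortest list among the cultures, and its lack of both peaks was shared with the acutely isolated ECs. Csf1, Cx3cl1 and Ackr3 were open in all 10 libraries with ranges that overlapped or touched between acutely isolated and cultured ECs, at 10.6 and 8.21 against 5.15 to 15.3 for Csf1, 15.5 and 9.89 against 7.03 to 18.8 for Cx3cl1, and 6.30 and 4.69 against 6.28 to 9.87 for Ackr3. The upstream starts of Csf1, which was called higher in culture, were thus open in the animal too. Another annotated start, further into the gene, had a peak nearby in cultures only. Its highest enrichment was 8.63, 10.1, 5.82 and 4.75 in WT replicates 3 to 6, and 4.59 and 6.91 in stabilized cultures. No peak was listed there in acutely isolated ECs or in the other WT libraries, all of which have shorter peak lists.

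**Figure D4:**
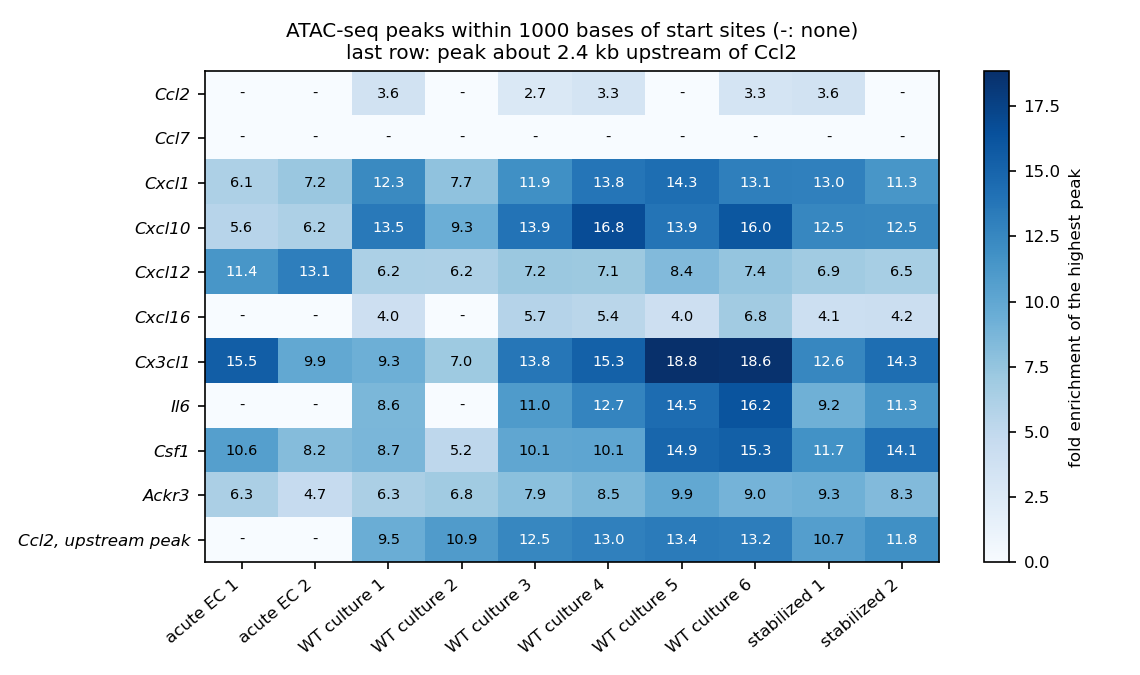
Fold enrichment (color scale and numbers) of the highest ATAC-seq peak within 1000 bases of a start site for each gene (rows) in each of 10 libraries (columns), with a dash where no peak was listed and, in the last row, the peak upstream of Ccl2. Cxcl12 is highest in the 2 acutely isolated libraries, and the upstream peak of Ccl2 is listed in all 8 cultured libraries and in neither acutely isolated one.

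Ccl2 itself had weak peaks at its start in some cultures, of 3.65, 2.75, 3.31 and 3.34 in WT replicates 1, 3, 4 and 6. A stronger peak lay upstream, with its summit between −2472 and −2416 from the start of Ccl2-201, and the sequence printed above is the 300 bases around it. Its enrichment was 9.47, 10.9, 12.5, 13.0, 13.4 and 13.2 in WT replicates 1 to 6 and 10.7 and 11.9 in stabilized cultures, and no such peak was listed in either library of acutely isolated ECs. It was present in WT replicate 2 with its short list too. Within 10000 bases of a start site, a width chosen after the data were seen, Ccl2 was the only one of the 10 genes with a peak in all WT cultures and no peak at all in acutely isolated ECs, a pattern shared by 3.48% of all genes. Within 1000 bases none of the 10 genes had it, against 1.89% of all genes. This counts genes, and single peaks of Cxcl16 and Cxcl1 were also listed in every cultured library and in neither acutely isolated one. For Cxcl16 the peak lay at −8002 in WT replicate 1, with an enrichment of 8.74 to 19.9 in WT cultures. For Cxcl1 such peaks lay at −9338 and −6205 in WT replicate 1.

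The region lies in an intron of the predicted gene Gm17268 on the opposite strand (chromosome 11, 82028224 to 82038562), which overlaps Ccl2 and had no counts in any of 14 libraries. It held kappaB matches at −2380 to −2371 and −2354 to −2345, an AP-1 match at −2479 to −2473 and a TEAD match at −2412 to −2407 from the start of Ccl2. Of 92604 windows of 300 bases around the peaks of WT replicate 3, 7.84% held a kappaB match, 27.4% an AP-1 match and 21.6% a TEAD match, so that AP-1 and TEAD letters were common in peaks of these cells.

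Other transcripts followed single members closely across libraries. Over the 14 libraries the highest Pearson r of log2(deposited TPM + 1) was 0.988 with Srpx2 for Ccl2, 0.966 with She for Cxcl12, 0.993 with Gulp1 for Cxcl16 and 0.991 with Szrd1 for Csf1. Over the 10 cultured libraries it was 0.998 with Hjurp and 0.997 with Tek for Cx3cl1, and 0.993 with Ifi202b and 0.993 with Hlx for Ackr3. The libraries come as pairs of wells that share an experiment, method and read length, and between 10959 and 11947 genes were searched for each, so that these are descriptions of the pattern only.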

How the data were processed

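Transcripts were quantified by the authors with Salmon 0.14.0 against GENCODE M21, and the deposited tables give for 140198 transcripts an estimated count, a TPM and an effective length in bases. Peaks were called by the authors in each library with MACS2 2.1.2 after HISAT2 2.1.0 alignment to GRCm38, and the deposited lists give for each peak a score, its fold enrichment at the summit, and p and q as −log10.

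Counts and TPM were summed per gene, counts rounded, and 21820 protein-coding genes kept. Where 27 symbols had more than 1 identifier, the most abundant was used. Tests used edgeR 4.0.16 in R 4.3.3 (filterByExpr, TMM, glmQLFit, glmQLFTest), each on the libraries it compares, with Benjamini-Hochberg adjustment over all genes tested and fold, significance and TPM thresholds modeled on the study. EBSeq, the tool of the study, was not used. A group without counts was bounded with 3 counts over the group. Estimated counts of acutely isolated cells are single reads and those of cultures are fragments. Rescaled TPM and the region upstream of Ccl2 were chosen after the data were seen. Alternatives were DESeq2 1.42.0, limma 3.58.1 on log2(TPM + 1), other scalings and filters, a replicate block, and leaving out libraries.

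The 10 genes and the gene lists were chosen with earlier results of these data known. The rule for other named genes took, of each list, up to 4 called genes with the largest change in WT culture, and the receptors of the 10 genes. Deviations from the group means of same-numbered stabilized and WT cultures correlated across genes at 0.27 to 0.33 for numbers 1 to 4, which met the limit set for pairing, although number 3 correlated best with number 4 and the labels do not explain it. The tests reported first had no block, and the block was an alternative. Groups followed the sample titles, and isolation methods the written Methods. Stabilized replicate 4 of RNA-seq is recorded with another molecule than RNA and was used by its title. The cerebrum libraries were not analysed here. Counting error is small at these depths except for Ccl7, Cxcl10 and Il6, and limits cover counting error only.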

Additional observations from a re-analysis of the deposited data

Results flagged for a closer look

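The difference between stabilized and WT wells was unlike in the 2 isolation methods for 6 of the 10 genes. This was a test of the difference itself over 8 wells of 36 cycles, against the spread between wells. Each genotype in each method was 1 experiment, so method, mouse line and experiment cannot be told apart. Method B minus method A was 0.58 for Ccl2, 0.76 for Cxcl1, 0.75 for Cxcl16, 1.12 for Cx3cl1, −0.35 for Csf1 and −0.50 for Ackr3 on the log2 scale. Such a difference was found for 49.6% of all genes. Within each method the fitted difference was positive for Ccl2, Csf1 and Ackr3. For Cxcl16 and Cx3cl1 it was positive in method B and negative in method A, where that of Cx3cl1 did not pass the threshold. For Cxcl1 it was −0.77 in method A and −0.03 in method B (interval −0.34 to 0.28).

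The ATAC-seq enrichment at the start of Cxcl1 was 7.71 in WT replicate 2, apart from the other WT cultures, which lay between 11.9 and 14.3. This was 1 of 29 groups checked for a lone value, and chance gives about 1 in 20. The library has the shortest peak list among the cultures, and its part in this value was not tested.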

How the results depend on the processing

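Between WT cultures and acutely isolated ECs, 4 of the 10 genes were called in every fit that left out 1 library, while all calls ranged from 2420 to 3228, and reached 5985 without the TPM minimum and 2108 with wells summed, against 3275. With the replicate number as a block on replicates 1 and 2, whose deviations correlated at 0.0092, 6 of the 10 were called. Between ECs and GFP-negative cells 2 were called, and 1, Cxcl12, with the length offset, limma on TPM, all 14 libraries in one fit or a replicate block (1 to 2 when a library was left out), and 4 without the TPM minimum, which adds Ccl2 and Ccl7. All calls there were 1554, 1348 and 4476 under the offset, limma and no minimum, and 1779 to 2780 when a library was left out, against 2395. The split of 1253 higher and 1142 lower became 930 and 1419 with scaling by library size. Between stabilized and WT cultures 0 genes were called whichever library was left out, 18 with DESeq2, 190 with the block and 76, of the 10 genes 1, Ackr3, with method as covariate at 36 cycles. Within method A, 810 calls ranged from 625 to 1080 with 1 to 2 of the 10 genes, and were 1533 without the minimum and 2593, with 4 of the 10, under limma on TPM. Its split of 692 higher and 118 lower became 556 and 187 with library size. Within method B, 175 calls ranged from 151 to 232, with 1 of the 10 genes, and were 742 without the minimum, which adds Cxcl10 as the second, and 266 with the minimum on rescaled TPM. In the last 200 bases of the promoters the interferon element was found in 0 and AP-1 in 1 of the 7 genes. No call of the 10 genes changed direction.

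Values below the threshold that changed sign were these, on the log2 scale, with the range over all fits that left out 1 library. For culture, Cxcl1 was 1.21 with the block, 0.75 in method A and −1.43 to 1.01 when a library was left out, Cxcl10 was 0.076 with the block and −1.65 to 1.65, and Ackr3 was 0.10 with library size, 0.19 with the offset, 0.15 with limma on TPM, 0.18 in method B and −0.71 to 0.032. For ECs over GFP-negative cells, Cxcl10 was −1.05 to 2.37, and Cxcl16 was −0.023 with library size, −0.25 with the replicate block and −1.73 to 0.98. The positive values of Cxcl1 and Cxcl10 in culture came without acutely isolated replicate 1, as did the −1.05, and the −1.73 without its replicate 2. For stabilization over all cultures with the replicate block, Ccl2 was −0.89, Cx3cl1 −0.38, Ackr3 −0.033 and Cxcl1 0.20, which was also 0.000499 with the offset, 0.80 with limma on TPM and 0.94 on rescaled TPM. Ccl2 was −0.037 with library size. With a library left out, Ccl2 was −0.41 to 0.35, Cxcl1 −0.60 to 0.45, Cx3cl1 −0.22 to 0.57 and Ackr3 −0.11 to 0.74. Within method A, limma on TPM gave Ccl7 0.070, Cxcl1 0.11, Cxcl16 0.47 and Cx3cl1 0.61, and Cx3cl1 was 0.0059 on rescaled TPM and −0.36 to 0.0060 with a well left out. Within method B, Cxcl1 was 0.025 with the offset, 0.057 with limma on rescaled TPM and −0.17 to 0.17 with a well left out, and Cxcl12 was −0.059 with limma on TPM. The causes were not tested.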
